A study of Mus musculus with 9 samples.

Results

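The 32 genes described here mark microglia, the resident macrophages of the brain. They were chosen by symbol, as the rows of the deposited count table whose NCBI gene ID maps to a listed symbol. All 32 had a row among the 36172 features, and 32 of 32 passed the filter on low counts that left 15144 genes for testing. By role they comprised 10 homeostatic receptors, 11 complement and phagocytosis genes, 3 innate sensors, 3 transcription factors and 5 other surface and cytosolic genes.

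RNA was sequenced from frozen medial prefrontal cortex (mPFC), a frontal area involved in emotional and social behaviour, of mice of the inbred strain DBA2/J. The 9 libraries formed 3 groups of 3. SA:ANH-KDM5Ci libraries came from mice of the SA:ANH subtype that went through 5 days of social defeat (smSDS), repeated exposure to an aggressor, and were given an inhibitor of KDM5C, a histone H3K4 demethylase. SA:ANH-vehicle libraries came from defeated mice of the same subtype that were given vehicle in the titles and saline in the treatment labels. NS libraries came from non-stressed mice labelled with saline. Strain, tissue and library kit were shared by all 3 groups. The inhibitor's name, dose and timing, the meaning of SA:ANH, and the age, sex and pooling of the mice are not given in the sources used here. No label states whether the replicates were different animals. The p-values therefore refer to the scatter among these libraries, and this may be technical.

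Microglia survey the tissue with fine processes and depend on signalling through the receptor Csf1r for survival. In the healthy brain they carry receptors that read nucleotides, chemokines and lipids, among them P2ry12, P2ry13 and Cx3cr1, and this homeostatic profile is held by transcription factors such as Sall1. They also make the C1q complement subunits and the receptors that tag and engulf synapses, debris and dying cells, and in disease models the homeostatic receptors and the phagocytic genes often shift in opposite directions.

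Promoters of 4 members are shown because P2ry13 and Sall1 were the members that passed the test in both comparisons of SA:ANH-KDM5Ci, and because C1qb and C1qc, neighbours on chromosome 4, were both far higher in 1 library than in the rest. The sequences are from RefSeq (GRCm38.p6), 250 bases before to 50 after an annotated start, written 5′ to 3′ on the gene's strand, the minus strand in all 4. Capitals mark matches to GAGGAA or its reverse complement TTCCTC, the core that PU.1, the product of Spi1, is known to bind. The P2ry13 sequence covers chr3:59210833-59211132, that of Sall1, the start farthest upstream of 3 in the table, chr8:89044113-89044412, that of C1qb chr4:136886151-136886450, and that of C1qc chr4:136892865-136893164.
P2ry13: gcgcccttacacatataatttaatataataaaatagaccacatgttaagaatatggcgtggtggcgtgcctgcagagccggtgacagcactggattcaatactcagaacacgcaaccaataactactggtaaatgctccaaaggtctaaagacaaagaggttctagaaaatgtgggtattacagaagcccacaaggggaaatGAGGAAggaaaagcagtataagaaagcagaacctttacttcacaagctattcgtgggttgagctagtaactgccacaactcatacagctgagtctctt
Sall1: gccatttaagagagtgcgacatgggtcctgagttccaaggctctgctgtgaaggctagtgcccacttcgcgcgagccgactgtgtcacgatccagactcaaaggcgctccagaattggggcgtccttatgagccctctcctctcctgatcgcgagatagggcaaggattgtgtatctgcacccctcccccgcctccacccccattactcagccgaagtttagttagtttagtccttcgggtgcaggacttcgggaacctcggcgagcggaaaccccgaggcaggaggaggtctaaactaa
C1qb: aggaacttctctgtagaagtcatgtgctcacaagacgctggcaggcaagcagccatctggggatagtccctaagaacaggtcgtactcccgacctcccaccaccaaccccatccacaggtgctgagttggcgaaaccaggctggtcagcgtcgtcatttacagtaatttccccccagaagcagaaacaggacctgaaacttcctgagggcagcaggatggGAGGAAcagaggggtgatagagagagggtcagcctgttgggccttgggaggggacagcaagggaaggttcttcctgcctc
C1qc: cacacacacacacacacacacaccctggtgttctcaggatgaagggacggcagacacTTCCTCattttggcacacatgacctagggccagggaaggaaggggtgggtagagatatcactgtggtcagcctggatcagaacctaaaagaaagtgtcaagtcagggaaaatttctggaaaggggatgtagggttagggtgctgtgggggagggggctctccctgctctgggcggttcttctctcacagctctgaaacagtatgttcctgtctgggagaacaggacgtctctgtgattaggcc

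Of the 32 members, 23 had a promoter in the RefSeq table, with 28 promoters in all. GAGGAA, searched on both strands, was in 15 of these 28 (53.57%) and in 9289 of all 32851 promoters of the same length (28.28%). Promoters of the same gene can overlap, and those of Fcgr3 share nearly all their bases and the same match, counted in both. The longer GAGGAAGT, which contains it, was in 2 of 28 (7.143%) and in 1052 of 32851 (3.202%). The median number of CG dinucleotides was 6 over member promoters and 7 over all promoters. P2ry13 had 6 and the printed Sall1 promoter 18, and the other Sall1 promoters had 27 and 39. These are letters in a window, and binding was not measured.

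The microglial markers were present in the labelled tissue: all 32 were above 0 in all 9 libraries, with deposited counts from 26 for Tlr2 to 4540 for Csf1r. Total counts per library were 30525714 to 40700115 in SA:ANH-KDM5Ci, 33733470 to 42196472 in SA:ANH-vehicle and 29845097 to 36033714 in NS. SA:ANH-KDM5Ci replicate 1 stood apart for these genes. It was the highest of the 9 libraries for 23 of 32 members and the lowest for 0, while replicate 3 of the same group was the lowest for 11. Summed over the 32 members it reached 779 CPM (edgeR's library-size-scaled count unit, on TMM-scaled totals), and SA:ANH-KDM5Ci replicates 2 and 3 had 584 and 583 CPM, against 632 to 650 CPM in SA:ANH-vehicle and 586 to 597 CPM in NS. The same library was highest for the summed markers of neurons of the striatum, which lies near the dissected region, at 745 CPM, against 318 and 499 CPM in the other SA:ANH-KDM5Ci libraries, 266 to 344 CPM in SA:ANH-vehicle and 244 to 397 CPM in NS. Their part in the results was not tested. In bulk tissue, fewer microglia and less RNA per microglial cell cannot be told apart.

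**Figure D1:**
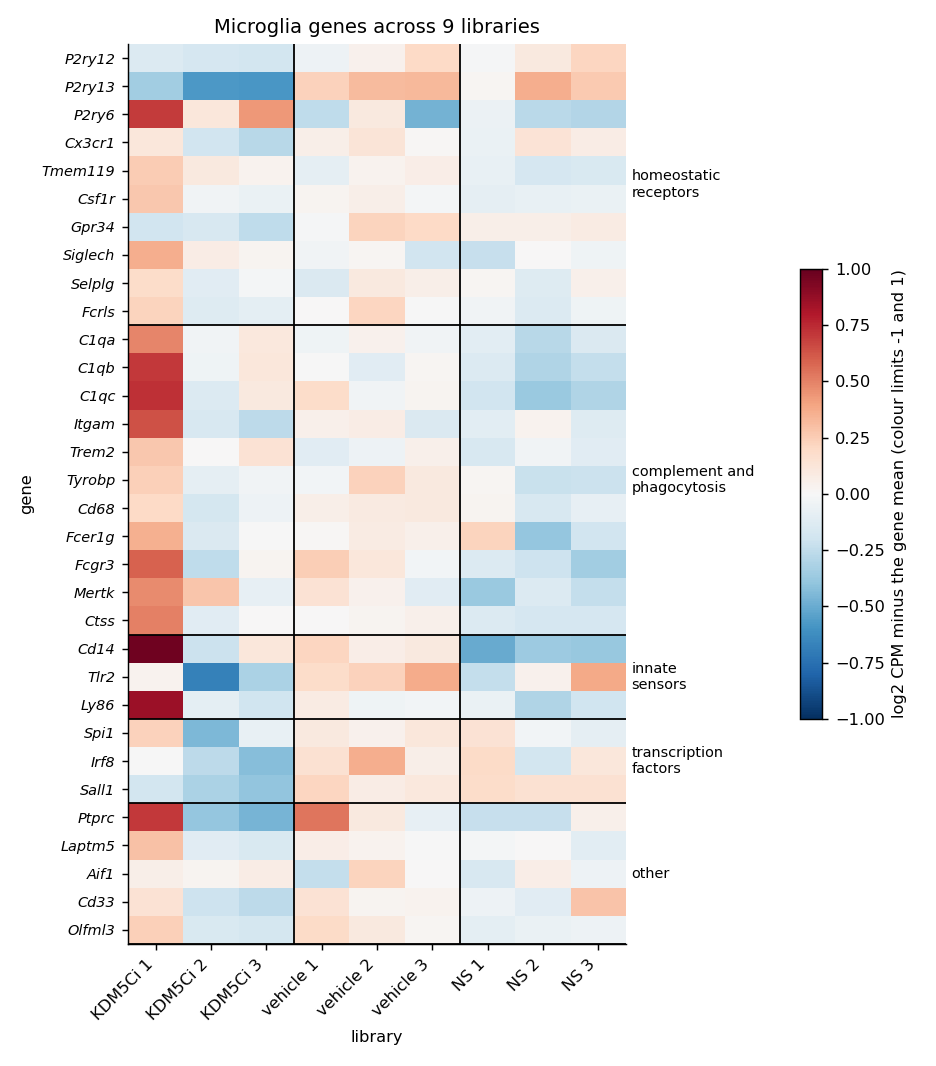
Log2 CPM of each of the 32 members minus its mean over the 9 libraries (colour, limits -1 to 1), with members in rows by role and libraries in columns by group. SA:ANH-KDM5Ci replicate 1 is the highest library for 23 of 32 members, whereas P2ry13, Gpr34 and Sall1 are low in all 3 SA:ANH-KDM5Ci libraries.

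Per kilobase of merged exon, mean levels over the 9 libraries ran over a wide range. The lysosomal protease gene Ctss stood first with 51.6 CPM per kb, followed by C1qa with 31.1, C1qb with 20.8, Csf1r with 18.1 and P2ry12 with 17.0 CPM per kb. P2ry13 and Sall1 were in the middle of the order, with 4.39 and 4.34 CPM per kb, and Gpr34 had 6.48 CPM per kb. The lowest were Tlr2 with 0.469, Cd33 with 0.384 and Ptprc with 0.276 CPM per kb. All values that follow are CPM, which compare libraries for 1 gene and not 1 gene with another.

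The first comparison, SA:ANH-KDM5Ci over SA:ANH-vehicle, addresses the effect of the inhibitor in defeated mice. A nucleotide receptor, a lipid-sensing receptor and a transcription factor of homeostatic microglia fell, and no member rose. P2ry13, Gpr34 and Sall1 were lower in edgeR's quasi-likelihood test (Benjamini-Hochberg, 0.05), which is 3 of 32 members, while the same test called 2.51% of all genes tested in either direction, 0.891% as higher and 1.62% as lower. Of the 32 log2 fold changes 17 were positive and 15 negative, with a median of 0.02 over the members and 0.00 over all genes tested. Without SA:ANH-KDM5Ci replicate 1, 8 were positive and 24 negative, with a median of -0.17. Groups did not overlap for 2 members that were higher and 6 that were lower in SA:ANH-KDM5Ci, against 7.92% and 10.9% of all genes tested.

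P2ry13, a P2Y receptor for ADP and a close relative of P2ry12 (NCBI gene 74191, chromosome 3, 59207892 to 59210882, GRCm38), had 8.43, 7.21 and 7.14 CPM in SA:ANH-KDM5Ci, 12.6, 13.4 and 13.4 CPM in SA:ANH-vehicle and 10.9, 13.8 and 12.9 CPM in NS. All 3 SA:ANH-KDM5Ci libraries lay below all 6 others, and the SA:ANH-vehicle and NS libraries overlapped. The mean was 7.59 ± 0.726 CPM in SA:ANH-KDM5Ci and 13.2 ± 0.473 CPM in SA:ANH-vehicle (SD, n = 3 each), a log2 fold change of -0.79 (SE 0.10), or 0.577 times the vehicle level (edgeR adjusted p = 0.000822). The call held in 9 of 9 fits that left out a library, with adjusted p from 0.000335 to 0.00722. Without SA:ANH-KDM5Ci replicate 1 the log2 fold change was -0.87.

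Sall1, a zinc-finger transcription factor that in the adult brain is characteristic of microglia and keeps their homeostatic profile (NCBI gene 58198, chromosome 8, 89027242 to 89044162, GRCm38), had 19.9, 18.2 and 17.2 CPM in SA:ANH-KDM5Ci, 26.3, 23.9 and 24.3 CPM in SA:ANH-vehicle and 25.6, 25.1 and 25.2 CPM in NS. Every SA:ANH-KDM5Ci library was below every other library, and the NS libraries lay within the range of SA:ANH-vehicle. The mean was 18.4 ± 1.37 CPM in SA:ANH-KDM5Ci and 24.8 ± 1.31 CPM in SA:ANH-vehicle (SD, n = 3 each), which is -0.43 on the log2 scale (SE 0.07, edgeR adjusted p = 0.00430). It passed in 9 of 9 fits without a library, with adjusted p from 0.00475 to 0.0205, and the log2 fold change without SA:ANH-KDM5Ci replicate 1 was -0.49.

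Gpr34, a receptor for lysophosphatidylserine (NCBI gene 23890, chromosome X, 13622650 to 13640859, GRCm38), had 11.8, 12.02 and 11.3 CPM in SA:ANH-KDM5Ci, 13.4, 15.7 and 15.5 CPM in SA:ANH-vehicle and 14.05, 13.99 and 14.3 CPM in NS. The SA:ANH-KDM5Ci libraries were again below the other 6, but by a smaller margin to SA:ANH-vehicle replicate 1. The log2 fold change was -0.34 (SE 0.08, edgeR adjusted p = 0.0345). This call was kept in 2 of 9 fits without a library and reached an adjusted p of 0.166 without SA:ANH-vehicle replicate 2, and it was lost with only the 2 groups compared (adjusted p = 0.0761).

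**Figure D2:**
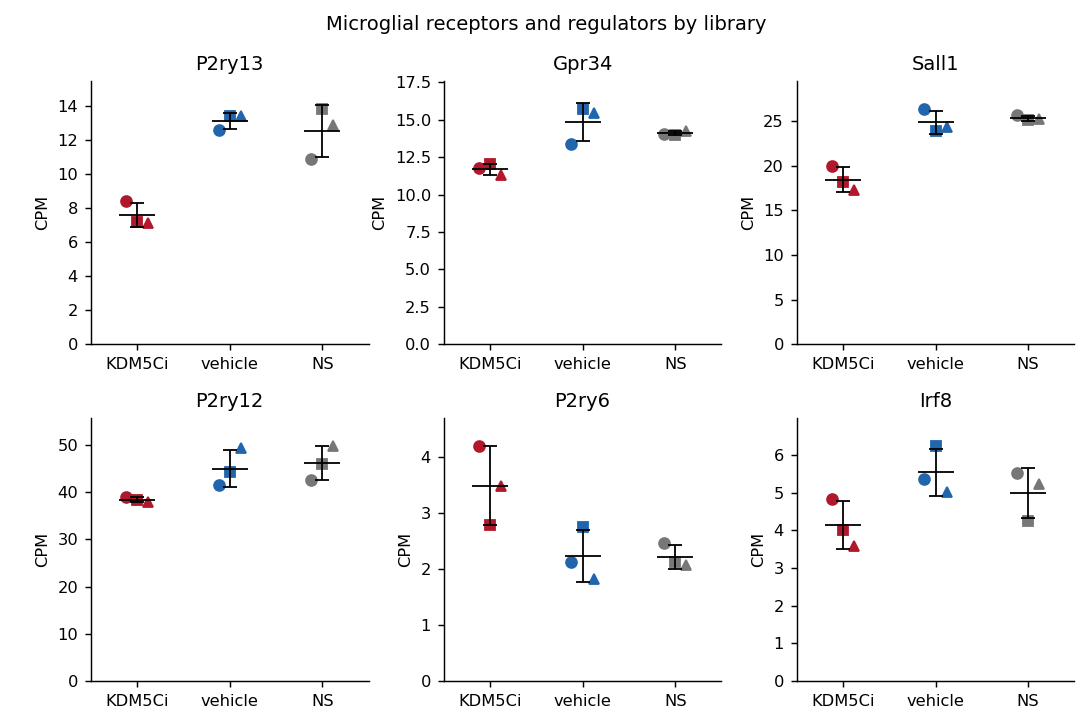
CPM (y axis, from 0) of P2ry13, Gpr34, Sall1, P2ry12, P2ry6 and Irf8 in each library by group (x axis), with circles, squares and triangles for replicates 1, 2 and 3, the mean as a long bar and the SD as whiskers (n = 3). All 3 SA:ANH-KDM5Ci libraries lie below all others for P2ry13, Gpr34, Sall1 and P2ry12, and above all others for P2ry6.

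P2ry12 and P2ry6, the other P2Y receptors among the members, are given although they did not pass, and were chosen after their values were seen. P2ry12, the ADP receptor that steers microglial processes, had 39.1, 38.4 and 37.9 CPM in SA:ANH-KDM5Ci, 41.5, 44.2 and 49.3 CPM in SA:ANH-vehicle and 42.6, 46.0 and 49.8 CPM in NS, a log2 difference of -0.23 from SA:ANH-vehicle (adjusted p = 0.132). P2ry6, the UDP receptor linked to phagocytosis, had 4.20, 2.78 and 3.49 CPM in SA:ANH-KDM5Ci, 2.13, 2.74 and 1.82 CPM in SA:ANH-vehicle and 2.46, 2.12 and 2.07 CPM in NS, a log2 difference of 0.64 (adjusted p = 0.0977). Neither receptor's SA:ANH-KDM5Ci libraries overlapped those of the other groups, and the values of P2ry12 lay lower and those of P2ry6 higher. P2ry12 and P2ry13 lie inside Med12l, a Mediator subunit gene on the same stretch of chromosome 3, which averaged 50.4 CPM in SA:ANH-KDM5Ci, 54.2 CPM in SA:ANH-vehicle and 53.4 CPM in NS (log2 fold change -0.11 against SA:ANH-vehicle, adjusted p = 0.639). Gpr34 lies inside Cask, a scaffold gene active in neurons, which averaged 142 CPM in SA:ANH-KDM5Ci, 130 CPM in SA:ANH-vehicle and 143 CPM in NS. Whether the counting used the strand was not stated, and the share of such overlapping transcripts in these members cannot be told apart.

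Among the other 6 homeostatic receptors, 0 passed. Tmem119, a membrane protein used to tell microglia from other macrophages, had 24.3, 21.8 and 20.8 CPM in SA:ANH-KDM5Ci, 19.1, 20.8 and 21.3 CPM in SA:ANH-vehicle and 19.3, 18.1 and 18.3 CPM in NS (log2 fold change 0.13 against SA:ANH-vehicle, adjusted p = 0.499). Csf1r, the survival receptor, had 126, 102 and 99.8 CPM in SA:ANH-KDM5Ci, 106, 109 and 103 CPM in SA:ANH-vehicle and 97.8, 99.2 and 99.8 CPM in NS (log2 fold change 0.04, adjusted p = 0.861). For both, only replicate 1 of SA:ANH-KDM5Ci stood above every SA:ANH-vehicle library by more than the spread within that group. The fractalkine receptor Cx3cr1 was at -0.18, the lectin Siglech at 0.23, the selectin ligand Selplg at 0.01 and the Fc receptor-like Fcrls at -0.07 on the log2 scale, with adjusted p from 0.348 to 0.972. Over the 10 receptors the median log2 fold change was -0.03, and -0.13 without SA:ANH-KDM5Ci replicate 1.

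The other 2 transcription factors also had lower values, without passing. Irf8, an interferon regulatory factor that microglia need to develop, had 4.82, 4.01 and 3.58 CPM in SA:ANH-KDM5Ci, 5.37, 6.24 and 5.03 CPM in SA:ANH-vehicle and 5.51, 4.24 and 5.22 CPM in NS. Its SA:ANH-KDM5Ci libraries lay below those of SA:ANH-vehicle but overlapped NS, and the log2 fold change against SA:ANH-vehicle was -0.43 (SE 0.14, adjusted p = 0.164). Spi1, which encodes PU.1, the master factor of the myeloid lineage, had 3.61, 2.23 and 2.91 CPM in SA:ANH-KDM5Ci, 3.28, 3.16 and 3.32 CPM in SA:ANH-vehicle and 3.39, 3.01 and 2.88 CPM in NS, and was highest in replicate 1 of SA:ANH-KDM5Ci and lowest in its replicate 2 (log2 fold change -0.16, adjusted p = 0.723).

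None of the 11 complement and phagocytosis genes passed against SA:ANH-vehicle. In edgeR's quasi-likelihood test 0 were below an unadjusted p of 0.05, against 14.2% of all genes tested. By limma-voom and by DESeq2 0 passed, and DESeq2 called 3.18% of all genes tested. Of their log2 fold changes 9 were positive and 2 negative, with a median of 0.13. Without SA:ANH-KDM5Ci replicate 1, 4 of 11 were positive and the median was -0.08, so the direction of this group rests on that library. C1qb, a subunit of C1q, which starts the classical complement cascade, had 36.2, 21.5 and 23.9 CPM in SA:ANH-KDM5Ci, 22.1, 20.5 and 22.4 CPM in SA:ANH-vehicle and 20.2, 17.9 and 18.7 CPM in NS. Its log2 fold change was 0.32 against SA:ANH-vehicle (SE 0.16, adjusted p = 0.425), and 0.07 without SA:ANH-KDM5Ci replicate 1, the only library far above the rest. Trem2, the lipid receptor that drives phagocytosis, had 9.74, 8.11 and 8.94 CPM in SA:ANH-KDM5Ci, 7.48, 7.78 and 8.36 CPM in SA:ANH-vehicle and 7.21, 7.89 and 7.46 CPM in NS (log2 fold change 0.18, adjusted p = 0.416). Tyrobp, the signalling adaptor of Trem2, had 9.02, 7.17 and 7.47 CPM in SA:ANH-KDM5Ci, 7.50, 8.96 and 8.21 CPM in SA:ANH-vehicle and 7.77, 6.55 and 6.59 CPM in NS (log2 fold change -0.06, adjusted p = 0.870). SA:ANH-KDM5Ci and SA:ANH-vehicle overlapped for both partners.

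The innate sensors and the remaining members did not pass either. Tlr2, a Toll-like receptor for bacterial lipoproteins, had 1.41, 0.840 and 1.10 CPM in SA:ANH-KDM5Ci, 1.57, 1.62 and 1.79 CPM in SA:ANH-vehicle and 1.16, 1.42 and 1.81 CPM in NS (log2 fold change -0.57 against SA:ANH-vehicle, SE 0.22, adjusted p = 0.240). Cd14, the co-receptor for lipopolysaccharide, had 7.87, 3.43 and 4.31 CPM in SA:ANH-KDM5Ci, 4.64, 4.17 and 4.27 CPM in SA:ANH-vehicle and 2.80, 3.09 and 3.04 CPM in NS (log2 fold change 0.25, adjusted p = 0.717). Tlr2 did not overlap between SA:ANH-KDM5Ci and SA:ANH-vehicle, whereas Cd14 ranged in SA:ANH-KDM5Ci from below to above all SA:ANH-vehicle libraries. Ptprc, the leukocyte phosphatase CD45, had 8.01, 3.72 and 3.51 CPM in SA:ANH-KDM5Ci, 7.10, 5.21 and 4.59 CPM in SA:ANH-vehicle and 4.15, 4.15 and 5.05 CPM in NS (log2 fold change -0.17, adjusted p = 0.860). Cd33, an inhibitory sialic acid receptor, had 3.28, 2.55 and 2.46 CPM in SA:ANH-KDM5Ci, 3.28, 3.02 and 3.03 CPM in SA:ANH-vehicle and 2.85, 2.73 and 3.61 CPM in NS (log2 fold change -0.18, adjusted p = 0.674). Olfml3, a secreted protein that microglia make, had 21.5, 16.4 and 16.1 CPM in SA:ANH-KDM5Ci, 20.8, 19.5 and 18.4 CPM in SA:ANH-vehicle and 17.0, 17.4 and 17.6 CPM in NS (log2 fold change -0.13, adjusted p = 0.639). For Ptprc, Cd33 and Olfml3 replicates 2 and 3 of SA:ANH-KDM5Ci were below all SA:ANH-vehicle libraries and replicate 1 was not. Over all 32 members, 8 log2 fold changes were positive and 24 negative without that replicate, with a median of -0.17.

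**Figure D3:**
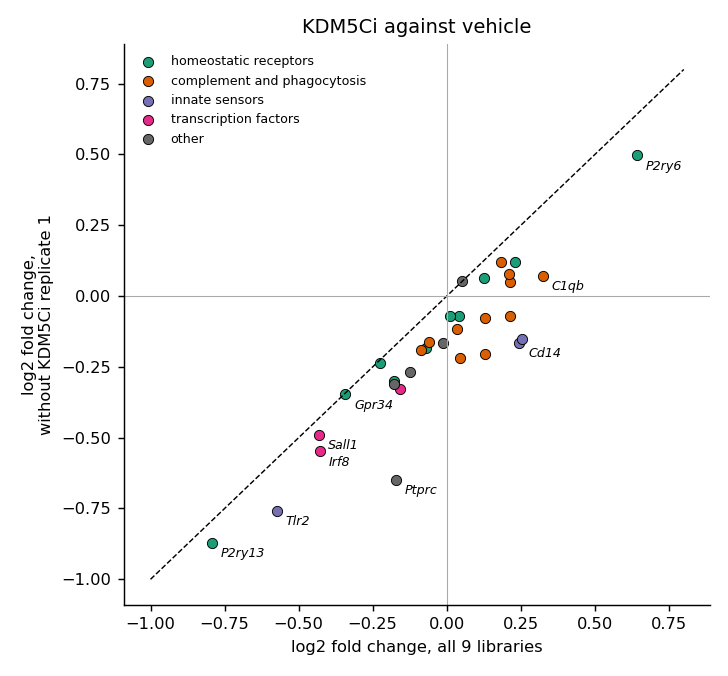
Log2 fold change of each of the 32 members in SA:ANH-KDM5Ci against SA:ANH-vehicle with all 9 libraries (x axis) and without SA:ANH-KDM5Ci replicate 1 (y axis), coloured by role, with the line of equality dashed. Points of complement and phagocytosis genes lie below the line, with a median of 0.13 on the x axis and -0.08 on the y axis, and P2ry13 and Sall1 lie below 0 on both axes.

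SA:ANH-vehicle against NS compares defeated with non-stressed mice, and stress and subtype cannot be told apart in it. No member passed: 0 of 32, with 0.0132% of all genes tested called. In edgeR's quasi-likelihood test 0 members were below an unadjusted p of 0.05, against 8.21% of all genes tested. By limma-voom and by DESeq2 0 were called, and DESeq2 called 0.535% of all genes tested. The fit also holds the SA:ANH-KDM5Ci libraries, whose scatter enters these tests. Without SA:ANH-KDM5Ci replicate 1 the SE went from 0.252 to 0.125 for Cd14, 0.195 to 0.0874 for C1qc and 0.130 to 0.0486 for Ctss. Their log2 fold changes were then 0.55, 0.35 and 0.18 (edgeR adjusted p = 0.196, 0.254 and 0.294), and 0 members passed. The log2 fold change was positive in 30 of 32 members, with a median of 0.14 over the members and 0.00 over all genes tested. Without SA:ANH-vehicle replicate 2, 25 were positive and the median was 0.084, and without NS replicate 1, 25 were positive and the median was 0.16. SA:ANH-vehicle lay above NS without overlap for 12 members and below it for 0, against 8.29% and 6.81% of all genes tested. The 12 were 7 complement and phagocytosis genes, 2 homeostatic receptors, 2 innate sensors and Olfml3.

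The complement and phagocytosis genes had positive log2 fold changes in 11 of 11 cases, with a median of 0.19, and kept 11 of 11 in every fit without a library, with medians from 0.15 to 0.22. Mertk, a receptor tyrosine kinase that engulfs dying cells and is also expressed by astrocytes, had 38.3, 35.7 and 32.1 CPM in SA:ANH-vehicle and 26.8, 31.5 and 29.4 CPM in NS (log2 fold change 0.27, SE 0.13, adjusted p = 0.612). C1qc, a C1q subunit given here after its values were seen, had 21.8, 18.7 and 19.5 CPM in SA:ANH-vehicle and 16.8, 14.8 and 15.5 CPM in NS (log2 fold change 0.35, SE 0.19, adjusted p = 0.704). Cd14 was at 4.36 ± 0.248 CPM in SA:ANH-vehicle and 2.98 ± 0.158 CPM in NS (SD, n = 3 each), higher by 0.55 on the log2 scale (SE 0.25, adjusted p = 0.609). The groups did not overlap for these 3 genes. Homeostatic receptors were positive in 9 of 10 cases, and in 5 of 10 without SA:ANH-vehicle replicate 2, with a median log2 fold change of 0.05. Other microglial genes were positive in 29 of 34 tested cases (median 0.09) and disease-associated microglia genes in 20 of 24 (median 0.05). P2ry13, Gpr34 and Sall1 were at 0.07, 0.07 and -0.03, with adjusted p of 0.917, 0.869 and 0.963 in edgeR's quasi-likelihood test. Markers of perivascular and meningeal macrophages, cells that also express many of the members, had values above NS in 9 of 9 tested cases with a median of 0.38 and 0 that passed. SA:ANH-vehicle and NS overlapped for all 9 of these markers. Their summed level was 39.0, 29.8 and 26.3 CPM in SA:ANH-vehicle and 22.1, 28.1 and 27.7 CPM in NS. In the 2 groups 0 of 10 markers were at 0 in any library, and the part of these cells in the values above was not tested. Markers of red blood cells included the 2 genes called in this comparison, with a summed level of 486 to 554 CPM in SA:ANH-vehicle and 279 to 321 CPM in NS.

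SA:ANH-KDM5Ci against NS shares its libraries with the comparisons above, so its values are given beside theirs and are not independent of them. P2ry13 and Sall1 fell, with log2 fold changes of -0.73 (SE 0.10, adjusted p = 0.00139) and -0.46 (SE 0.07, adjusted p = 0.00207) in edgeR's quasi-likelihood test. That is 2 of 32 members, with 3.97% of all genes tested called in either direction, 1.86% as higher and 2.11% as lower. Both were called in 9 of 9 fits without a library. Gpr34 and P2ry12 were at -0.27 and -0.26 with adjusted p of 0.0763 and 0.0568, and did not pass. Groups did not overlap for 10 members that were higher and 4 that were lower in SA:ANH-KDM5Ci than in NS, against 11.5% and 12% of all genes tested.

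Complement and phagocytosis genes had positive log2 fold changes against NS in 11 of 11 cases, with a median of 0.32, and 0 passed. Mertk had 48.2, 42.05 and 32.7 CPM in SA:ANH-KDM5Ci and averaged 29.2 ± 2.34 CPM in NS (SD, n = 3), or 0.48 on the log2 scale (adjusted p = 0.0647), and the 3 C1q subunits C1qa, C1qb and C1qc were at 0.38, 0.52 and 0.57 (adjusted p = 0.0884, 0.126 and 0.162). Cd14 was at 0.80 (SE 0.25, adjusted p = 0.113). Without SA:ANH-KDM5Ci replicate 1, Mertk was at 0.35, C1qa, C1qb and C1qc at 0.21, 0.26 and 0.28, and Cd14 at 0.38. For these 5 genes every SA:ANH-KDM5Ci library was above every NS library, and the highest was replicate 1 in each. By DESeq2, C1qa, C1qb, Mertk and Cd14 passed with adjusted p of 0.0190, 0.0112, 0.00238 and 0.0258, as did P2ry12, P2ry13 and Sall1, so that 4 members were called higher and 3 lower by that tool, which called 5.49% of all genes tested, 2.81% as higher and 2.68% as lower. Without SA:ANH-KDM5Ci replicate 1 the median of the 11 genes was 0.13 and 9 were positive, and over all 32 members the median was -0.01, against 0.16 with all libraries.

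**Figure D4:**
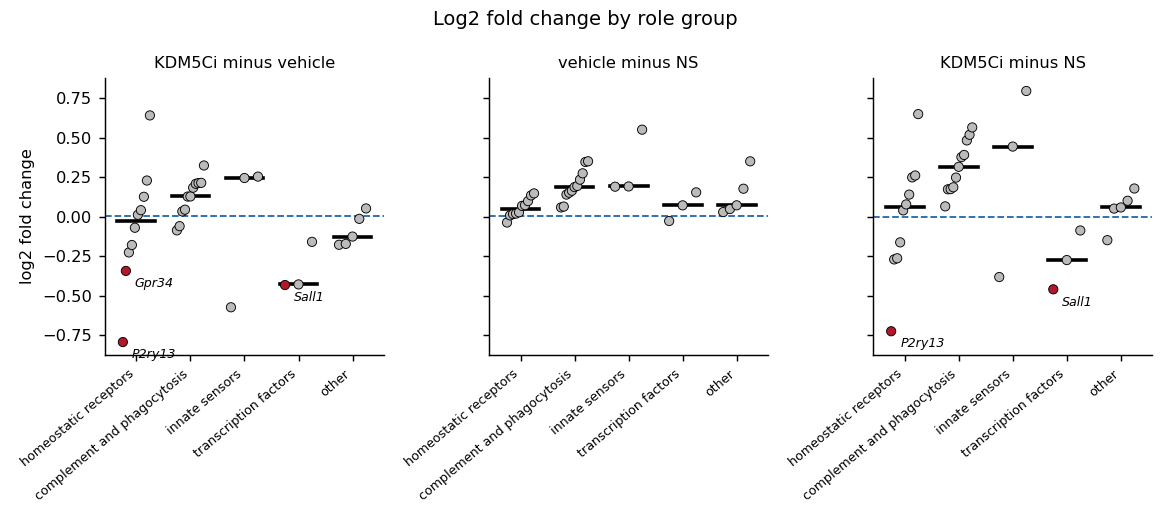
Log2 fold change (y axis) of each of the 32 members by role (x axis) in SA:ANH-KDM5Ci minus SA:ANH-vehicle, SA:ANH-vehicle minus NS and SA:ANH-KDM5Ci minus NS, with black bars at the role medians, the dashed line at the median of all genes tested and red points for members that passed at an adjusted p of 0.05. Against NS, complement and phagocytosis genes have medians of 0.32 for SA:ANH-KDM5Ci and 0.19 for SA:ANH-vehicle, and the red points are P2ry13, Gpr34 and Sall1.

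Set against each other within a library, the 2 main role groups gave an order of the 3 groups in summed CPM. The summed CPM of the 11 complement and phagocytosis genes divided by that of the 10 homeostatic receptors was 1.09, 0.874 and 0.915 in SA:ANH-KDM5Ci, 0.861, 0.802 and 0.804 in SA:ANH-vehicle and 0.785, 0.731 and 0.719 in NS. In this ratio no library of a group overlapped another group, with or without SA:ANH-KDM5Ci replicate 1. The difference between the role groups' median log2 CPM, centred per gene, did not separate SA:ANH-KDM5Ci from SA:ANH-vehicle. It was 0.289, 0.010 and 0.084 in SA:ANH-KDM5Ci, and 0.035, -0.053 and -0.014 in SA:ANH-vehicle. In NS this difference was -0.091, -0.173 and -0.194, below both other groups. The ratio is a description of the listed genes and was given no test, and the genes of highest CPM, Ctss and Csf1r, weigh most in it. The homeostatic sums were 309, 261 and 256 CPM in SA:ANH-KDM5Ci, 280, 297 and 289 CPM in SA:ANH-vehicle and 268, 281 and 285 CPM in NS. The complement and phagocytosis sums were 338, 228 and 234 CPM in SA:ANH-KDM5Ci, 241, 238 and 232 CPM in SA:ANH-vehicle and 210, 205 and 205 CPM in NS. Hence SA:ANH-KDM5Ci replicates 2 and 3 differed from SA:ANH-vehicle in the denominator, with complement and phagocytosis sums near or below those of SA:ANH-vehicle, and SA:ANH-vehicle differed from NS mostly in the numerator.

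**Figure D5:**
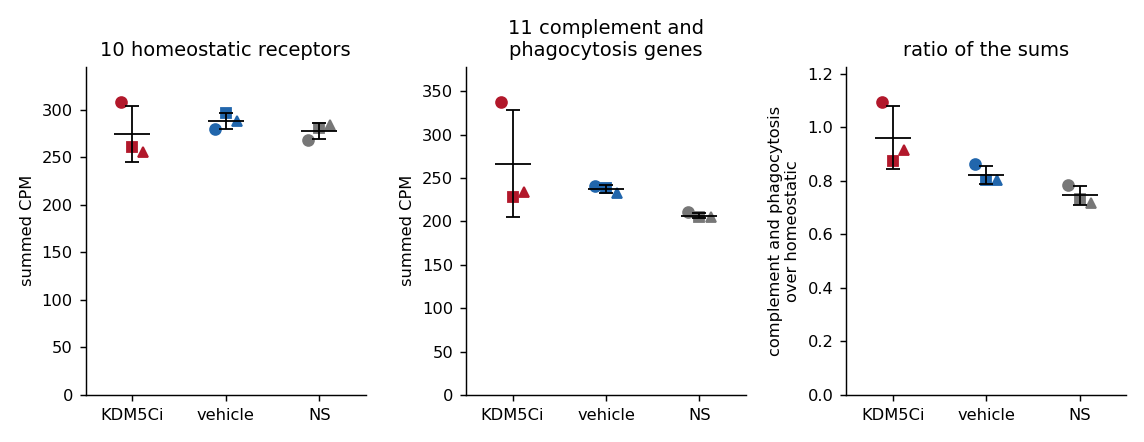
Summed CPM (y axis, from 0) of the 10 homeostatic receptors (left) and of the 11 complement and phagocytosis genes (middle), and the ratio of the second to the first (right), in each library by group, with circles, squares and triangles for replicates 1, 2 and 3, the mean as a long bar and the SD as whiskers (n = 3). The ratio is 0.874 to 1.09 in SA:ANH-KDM5Ci, 0.802 to 0.861 in SA:ANH-vehicle and 0.719 to 0.785 in NS.

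Across the 9 libraries, which share their sequencing and the group means, the complement and phagocytosis genes varied together more than the receptors did. The median Pearson correlation of log2 CPM between pairs of members was 0.75 within the 11 complement and phagocytosis genes, 0.30 within the 10 homeostatic receptors, 0.51 between the 2 groups and 0.50 over all 32 members. With group means removed the values were 0.74, 0.51, 0.57 and 0.60, and SA:ANH-KDM5Ci replicate 1 contributes to each. These values describe 9 points and were not tested.

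In SA:ANH-KDM5Ci against SA:ANH-vehicle 0.891% of all genes tested rose and 1.62% fell. Of 34 tested genes among 35 other microglial genes, 1 rose and 0 fell in that comparison. It was Golm1, a Golgi membrane protein, with 39.8, 40.4 and 42.1 CPM in SA:ANH-KDM5Ci, 30.02, 29.7 and 28.7 CPM in SA:ANH-vehicle and 28.8, 29.4 and 27.4 CPM in NS (log2 fold change 0.47, edgeR adjusted p = 0.000344). Other cells of the cortex may express it too. Its SA:ANH-KDM5Ci libraries lay above all others, while SA:ANH-vehicle and NS overlapped. Cyth4, named after its values were seen, was called lower without SA:ANH-KDM5Ci replicate 1 at a log2 fold change of -0.44 (adjusted p = 0.0324), against -0.23 (adjusted p = 0.482) with all libraries. Of 24 tested disease-associated microglia genes, such as Apoe and Clec7a, 0 passed in any comparison. Among 12 ligands of microglial receptors, 0 passed against SA:ANH-vehicle. Csf1, a ligand of Csf1r that is also in the disease-associated list, had the lowest p of both lists with 22.4, 18.7 and 16.0 CPM in SA:ANH-KDM5Ci, 23.8, 21.2 and 22.5 CPM in SA:ANH-vehicle and 20.3, 19.5 and 18.9 CPM in NS (log2 fold change -0.25, adjusted p = 0.271). Of 13 tested genes among 14 other complement genes 0 passed, and the lowest p against SA:ANH-vehicle was that of C4b, at a log2 fold change of -0.26 (adjusted p = 0.421). These complement genes beyond C1q were negative in 11 of 13 cases.

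Of 21 inflammatory genes, 15 were tested, and 2 rose and 0 fell in SA:ANH-KDM5Ci against SA:ANH-vehicle. Among all genes tested 0.891% rose and 1.62% fell. Tlr7, the endosomal receptor for single-stranded RNA, had 9.29, 8.66 and 7.19 CPM in SA:ANH-KDM5Ci, 4.15, 4.59 and 4.38 CPM in SA:ANH-vehicle and 3.08, 3.87 and 4.75 CPM in NS, which is 0.93 on the log2 scale (SE 0.14, edgeR adjusted p = 0.00360). All SA:ANH-KDM5Ci libraries lay above all others for Tlr7, and SA:ANH-vehicle overlapped NS. Nfkbia, the inhibitor of NF-kB, also a glucocorticoid target, had 52.7, 40.9 and 50.5 CPM in SA:ANH-KDM5Ci, 17.5, 16.5 and 14.9 CPM in SA:ANH-vehicle and 16.0, 12.7 and 15.5 CPM in NS (adjusted p = 1.02e-05). Against NS, Nfkbiz, a nuclear member of the same family, rose as well, by 1.00 on the log2 scale (adjusted p = 0.00831). Both Tlr7 and Nfkbia passed in 9 of 9 fits without a library. Icam1, an adhesion molecule of endothelial and immune cells named after its values were seen, was called lower without SA:ANH-KDM5Ci replicate 1 at -1.41 on the log2 scale (adjusted p = 0.0244), against -0.73 (adjusted p = 0.538) with all libraries. Which cells express them cannot be read from these libraries.

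Markers of other cells moved in part with the groups. Markers of blood-borne monocytes and neutrophils summed to 31.0 to 61.8 CPM in SA:ANH-KDM5Ci, 28.3 to 41.7 CPM in SA:ANH-vehicle and 26.2 to 32.2 CPM in NS. Log2 fold changes against SA:ANH-vehicle were negative for 5 of 8 tested markers, with a median of -0.72. Vcan, which precursors of oligodendrocytes also express, was 20.6 to 28.8 CPM of these sums, and it rose against SA:ANH-vehicle (log2 fold change 0.34, adjusted p = 0.0325). It was called in 5 of 9 fits without a library, and was not called without SA:ANH-KDM5Ci replicate 1 (adjusted p = 0.112). Within that list Lcn2, a neutrophil and reactive astrocyte gene given after its values were seen, had 20.7, 0.743 and 0.523 CPM in SA:ANH-KDM5Ci, 6.07, 2.52 and 0.324 CPM in SA:ANH-vehicle and 0.0565, 0.0557 and 0.401 CPM in NS. It was highest in the library that stood apart for the microglia genes. Lymphocyte markers summed to 2.29 to 6.99 CPM in SA:ANH-KDM5Ci, 2.29 to 3.12 CPM in SA:ANH-vehicle and 2.48 to 4.01 CPM in NS, and the T-cell genes Cd3e, Cd3g and Cd8a were at 0 in most libraries of the study. Endothelial markers summed to 204 to 244 CPM in SA:ANH-KDM5Ci, 259 to 276 CPM in SA:ANH-vehicle and 264 to 278 CPM in NS. Of these 10 markers 3, Cldn5, Kdr and Slco1a4, fell against SA:ANH-vehicle, where 1.62% of all genes tested fell. Of 10 astrocyte markers 1 fell, the transcription factor Sox9, and of 10 excitatory neuron markers 0 passed. Meningeal fibroblast markers, whose 12 of 12 log2 fold changes against SA:ANH-vehicle were negative, had 3 that fell, Lum, Foxc1 and Foxc2. For all 12 the SA:ANH-KDM5Ci libraries lay below those of SA:ANH-vehicle without overlap, as for 10.9% of all genes tested. In fits without a library Lum was called in 4 of 9, Foxc1 in 9 of 9 and Foxc2 in 5 of 9, and without SA:ANH-KDM5Ci replicate 1 the adjusted p of Lum was 0.0970. Perivascular and meningeal macrophage markers had 7 of 9 negative with a median of -0.28 and 0 that passed, and the lowest p was that of Cbr2 at a log2 fold change of -0.96 (adjusted p = 0.325). The part of these cells in the lower P2ry13, Gpr34 and Sall1 was not tested.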

How the data were processed

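Total RNA (1 ug per library) was made into strand-specific libraries, per the labels' protocols. The authors deposited a gene table of expected counts, of which 15.7% of those above 0 were whole within 1e-06. The submitters' processing notes name mm10, Bowtie2 2.2.3, TopHat2 2.0.13 and Trimmomatic 0.32, and how genes were counted, strand included, is not given in the sources used here. In the count table there were 36172 features and 0 columns of other samples. Symbols and positions came from RefSeq (GRCm38.p6, the assembly behind mm10), where 32891 IDs matched, and the others held 0.367% of the counts.

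Counts were rounded to whole numbers, filtered with filterByExpr (15144 genes) and scaled by TMM (0.987 to 1.01). A single fit of all 9 libraries with 1 mean per group was tested with edgeR 4.0.16 (R 4.3.3; quasi-likelihood, robust moderation, Benjamini-Hochberg over all genes tested at 0.05). The SE is the log2 fold change divided by the square root of F. Common biological variation was 6.95%. Tested on simulated counts for SA:ANH-KDM5Ci against SA:ANH-vehicle over 15144 genes, 91% of genes changed by 1 and 69% of those changed by 0.5 on the log2 scale were called. Of the calls on simulated counts, 5.88% were false. A count of 0 allows up to 3 counts, which covers counting error only. Levels per kilobase used merged exons of GENCODE M21.

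Members and gene lists were chosen with earlier results of these data known. Library values are given for members that passed in any comparison or were among the 2 of lowest p in their role group in the first 2 comparisons, and for exceptions named as chosen after their values were seen. Of other lists the text names members that passed, otherwise the 1 of lowest p. Fcgr3 shares near-identical stretches with Fcgr2b, so its counts are uncertain. Alternatives were DESeq2 1.42.0, limma-voom (limma 3.58.1), other scalings, filters, thresholds and samples in the fit, a block for the replicate number, and leaving out each library in turn. Promoters of Csf1r and Cd14 are not shown.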

Additional observations from a re-analysis of the deposited data

How the results depend on the processing

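P2ry13 and Sall1 kept their calls in both SA:ANH-KDM5Ci comparisons under every alternative run, and 0 named members reversed direction past the threshold. Of 9 same-numbered pairs of libraries, 3 had deviations from their group means correlated above 0.1. Pairs of different numbers were not compared, so this cannot decide whether the replicate number pairs the samples. With the number as a block, 3 members were called in SA:ANH-KDM5Ci against SA:ANH-vehicle, 0 in SA:ANH-vehicle against NS and 6 in SA:ANH-KDM5Ci against NS (3 higher, 3 lower), where 2 were called without it. Over all genes tested the block called 708 in that comparison, against 601 without it.

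In SA:ANH-KDM5Ci against NS, 7 members were called by DESeq2 and 8 at a threshold of 0.1. Leaving out 1 library gave 2 to 7, with 7 without SA:ANH-KDM5Ci replicate 2 and 4 without SA:ANH-vehicle replicate 1. Over all genes tested that comparison called 1017 at a threshold of 0.1 and 269 to 747 without 1 library. SA:ANH-KDM5Ci against SA:ANH-vehicle called 380, and 593 at 0.1 and 203 to 429 without 1 library. SA:ANH-vehicle against NS called 2, and 81 by DESeq2, 11 without TMM, 11 without the filter, 17 with only the 2 groups compared, 15 at 0.1 and 2 to 17 without 1 library. The cause of these differences was not tested, beyond fewer samples or a looser threshold by construction. The members' median log2 fold change without 1 library was -0.17 to 0.070 in SA:ANH-KDM5Ci against SA:ANH-vehicle, and -0.010 to 0.21 in SA:ANH-KDM5Ci against NS, the lowest in both without SA:ANH-KDM5Ci replicate 1. It was 0.084 to 0.16 in SA:ANH-vehicle against NS, the lowest without SA:ANH-vehicle replicate 2. Tlr2 had the lowest counts of the members, from 26 reads a library.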

Other observations

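After the values of P2ry13 and Gpr34 had been seen, 9 other receptors of the P2Y-like family were looked up, of which 4 passed the filter on low counts. Gpr183, an oxysterol receptor that guides immune cells, had 0.787, 0.873 and 1.05 CPM in SA:ANH-KDM5Ci, 1.45, 1.65 and 1.59 CPM in SA:ANH-vehicle and 1.78, 1.51 and 1.71 CPM in NS. It fell against SA:ANH-vehicle by 0.78 on the log2 scale (adjusted p = 0.0439) and against NS by 0.87 (edgeR adjusted p = 0.0187). The first call was kept in 0 of 9 fits without a library and the second in 5 of 9. P2ry1, an ADP receptor also found on astrocytes and neurons, had 4.95, 4.04 and 2.96 CPM in SA:ANH-KDM5Ci, 2.93, 2.49 and 2.44 CPM in SA:ANH-vehicle and 2.06, 2.31 and 2.51 CPM in NS. It rose against NS by 0.79 on the log2 scale (edgeR adjusted p = 0.0293), a call kept in 4 of 9 fits without a library and lost without SA:ANH-KDM5Ci replicate 1 (adjusted p = 0.117). ADP receptors thus had values in both directions, P2ry13 and P2ry12 lower and P2ry1 higher in SA:ANH-KDM5Ci than in NS.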
